A study of Homo sapiens with 2 samples.

Results

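Promoter contacts that span 1 Mb to under 2 Mb were examined in K562, an established human chronic myelogenous leukaemia line that carries the BCR-ABL1 fusion kinase. The cells had been kept for 24 h with DMSO, the vehicle, or with 100 nM ponatinib, a kinase inhibitor that blocks ABL. There was 1 promoter-capture Hi-C library per treatment, made from equal numbers of cells, so no difference below has a replicate check and each comparison is between 2 libraries. Members were all unordered pairs of HindIII fragments on the same chromosome whose midpoints lie from 1 Mb to under 2 Mb apart, leaving out chromosomes 9, 13 and 22. By this rule 2255 of the 84049 pairs listed in DMSO and 2798 of the 91305 listed in ponatinib were members. They made up 4514 of the 138160 pairs in either list, and 539 of them stood in both lists.

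Promoter-capture Hi-C joins DNA ends that lie close together in the nucleus and pulls out the joined pieces that hold a promoter. A captured fragment is called the bait and the fragment ligated to it the partner. Contacts become rarer as the distance along the chromosome grows, and cohesin and CTCF, which extrude and stop chromatin loops, hold most of them within one domain. Contacts longer than a typical domain are known from a few classes of locus, among them distant enhancers of developmental and growth genes, clusters of histone genes and regions bound by Polycomb proteins. A listed pair says that the authors' procedure scored the 2 fragments at 5 or more, and not that the partner regulates the gene. Distances run along the reference genome, and the K562 genome is rearranged relative to it, which was not examined for these loci.

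The promoters of 5 genes at the bait end of the loci described below are shown first. COL12A1 encodes a chain of collagen XII, IGFBP3 a secreted protein that binds insulin-like growth factors, TGFB2 a secreted transforming growth factor, BCL6 a transcriptional repressor of B cells, and RSPO3 a secreted protein that strengthens WNT signalling. Each sequence runs 5′ to 3′ on the gene's strand, from 250 bases before the transcription start to 50 after it, as RefSeq gives it for GRCh38.p14, and capitals mark CG dinucleotides. The COL12A1 promoter lies at chr6:75206004-75206303 on the minus strand, that of IGFBP3 at chr7:45921223-45921522 on the minus strand, that of TGFB2 at chr1:218345086-218345385 on the plus strand, that of BCL6 at chr3:187745419-187745718 on the minus strand and that of RSPO3 at chr6:127118421-127118720 on the plus strand. The baits of MYC and ADAMTS1, described below, are named only.
COL12A1: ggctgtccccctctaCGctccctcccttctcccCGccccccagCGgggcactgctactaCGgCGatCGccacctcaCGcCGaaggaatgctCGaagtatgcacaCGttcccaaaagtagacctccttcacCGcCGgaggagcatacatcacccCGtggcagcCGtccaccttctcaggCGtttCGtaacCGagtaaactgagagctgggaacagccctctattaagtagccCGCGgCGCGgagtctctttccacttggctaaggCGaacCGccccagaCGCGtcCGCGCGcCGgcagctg
IGFBP3: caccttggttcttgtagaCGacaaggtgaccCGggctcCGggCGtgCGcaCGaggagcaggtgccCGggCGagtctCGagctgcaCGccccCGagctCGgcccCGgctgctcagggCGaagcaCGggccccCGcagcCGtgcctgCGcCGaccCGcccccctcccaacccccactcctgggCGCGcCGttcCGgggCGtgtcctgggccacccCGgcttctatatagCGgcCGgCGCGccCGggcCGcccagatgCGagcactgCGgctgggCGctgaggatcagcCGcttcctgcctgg
TGFB2: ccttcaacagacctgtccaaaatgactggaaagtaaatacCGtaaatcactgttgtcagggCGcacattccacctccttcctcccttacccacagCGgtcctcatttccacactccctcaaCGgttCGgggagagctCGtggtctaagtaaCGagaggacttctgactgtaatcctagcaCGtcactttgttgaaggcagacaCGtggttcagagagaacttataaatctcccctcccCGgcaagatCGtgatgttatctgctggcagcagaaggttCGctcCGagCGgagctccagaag
BCL6: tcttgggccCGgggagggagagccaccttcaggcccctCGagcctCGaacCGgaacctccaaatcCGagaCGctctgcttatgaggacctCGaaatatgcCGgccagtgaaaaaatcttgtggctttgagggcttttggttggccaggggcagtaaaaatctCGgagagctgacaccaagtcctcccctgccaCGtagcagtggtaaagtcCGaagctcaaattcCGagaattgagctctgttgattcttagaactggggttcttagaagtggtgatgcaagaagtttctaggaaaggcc
RSPO3: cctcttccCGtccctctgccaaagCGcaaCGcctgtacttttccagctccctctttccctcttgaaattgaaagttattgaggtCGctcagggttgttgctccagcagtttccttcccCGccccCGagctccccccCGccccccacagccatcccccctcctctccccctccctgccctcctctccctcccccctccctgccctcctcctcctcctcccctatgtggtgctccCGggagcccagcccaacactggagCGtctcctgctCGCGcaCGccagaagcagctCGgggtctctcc

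These promoters differ widely in CG content. IGFBP3 has 36 CG dinucleotides in 300 bases and COL12A1 has 29, against 14 in TGFB2, 13 in RSPO3 and 12 in BCL6. The GC box GGGCGG was present, on either strand, in COL12A1, IGFBP3 and RSPO3. The letters TATAAA and AGATAA were found in TGFB2 alone of the 5. Over all genes the promoters at the ends of these pairs resembled other captured promoters in such features. The median number of CG dinucleotides was 24 both in the 1440 promoters of coding genes with a pair of 1 to 2 Mb, placed by their transcription start and matched to the table, and in the 8139 such promoters of genes without one. GGGCGG was present in 62.6% of the first and 62.7% of the second, a difference of -0.0918 percentage points (95% Newcombe interval -2.83 to 2.59). TATAAA was present in 7.57% and 8.65%, and AGATAA in 6.81% and 6.83%. Over all 27305 promoters of the table GGGCGG was present in 44.6%, TATAAA in 11.95% and AGATAA in 10.5%. The HindIII site AAGCTT, at which the DNA was cut, was present in 5.63% of promoters with such a pair, in 3.92% of those without one and in 5.87% of all promoters, each string being searched on both strands and with overlaps between them not removed. For AAGCTT the difference between the promoters with and without a pair was 1.71 points (0.541 to 3.08). Their median GC content was 62.7% (95% order-statistic interval 62.0% to 63.3%) with a pair and 63.7% (63.3% to 64.0%) without one. The median ratio of observed to expected CG dinucleotides was 0.818 and 0.789.

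Contacts of this length were more numerous in ponatinib than in DMSO. The ratio of the 2 numbers was 1.24 (95% exact binomial interval 1.17 to 1.31), against 1.14 (1.11 to 1.18) for pairs of 500 kb to 1 Mb, 1.08 (1.06 to 1.09) for 50 to 500 kb and 1.02 (0.989 to 1.06) under 50 kb. Pairs of 2 Mb or more had a ratio of 1.28 (1.17 to 1.40). Intervals here and below cover counting error only and treat pairs as independent, although neighbouring fragments are not. Of all listings of 1 to 2 Mb, 55.4% were in ponatinib, 2.00 percentage points more than for 500 kb to 1 Mb (95% Newcombe interval 0.461 to 3.53). Against 2 Mb or more the difference was -0.784 points, with an interval of -3.31 to 1.75 that holds 0. Pairs of 1 to 2 Mb made up 3.15% of same-chromosome pairs in DMSO and 3.59% in ponatinib, a difference of 0.443 points (0.260 to 0.625).

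The excess was smaller in lists of equal length. The ponatinib list is longer, and the files hold no read counts, so depth cannot be told apart from treatment. With both lists cut to equal length by their highest scores, the ratio was 1.12 (1.05 to 1.18) for 1 to 2 Mb and 0.996 (0.986 to 1.01) for all same-chromosome pairs. Among pairs with a score of at least 10 DMSO had 239 and ponatinib 388, which gives 1.62 (1.38 to 1.92). The same ratio was 1.28 (1.17 to 1.39) for 500 kb to 1 Mb and 1.48 (1.22 to 1.79) for 2 Mb or more. Without the MYC bait, which holds the most pairs, the ratio at a score of at least 10 was 1.61 (1.36 to 1.91). Ratios at a score limit take the score to mean the same in both lists, which was not tested.

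Numbers fell steeply with distance inside the window. DMSO had 548 pairs from 1000 to 1100 kb and 79 from 1900 to 2000 kb, and ponatinib had 675 and 120. The lists had a DMSO median of 1276 kb (1259 to 1292) and a ponatinib median of 1292 kb (1278 to 1304), and 73.0% and 70.9% of pairs were shorter than 1500 kb. At the lower limit of the window, in DMSO 324 pairs lay in the 50 kb below 1 Mb and 290 in the 50 kb above it, with median scores of 6.23 and 6.23. In ponatinib these numbers were 397 and 348, with median scores of 6.14 and 6.34. At 2 Mb the 50 kb inside held 43 DMSO and 66 ponatinib pairs, and the 50 kb outside held 39 and 37. The ponatinib number thus dropped across that limit. Several of the pairs inside, in both lists, belonged to the MYC bait described below, with partners out to 1991 kb.

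**Figure D1:**
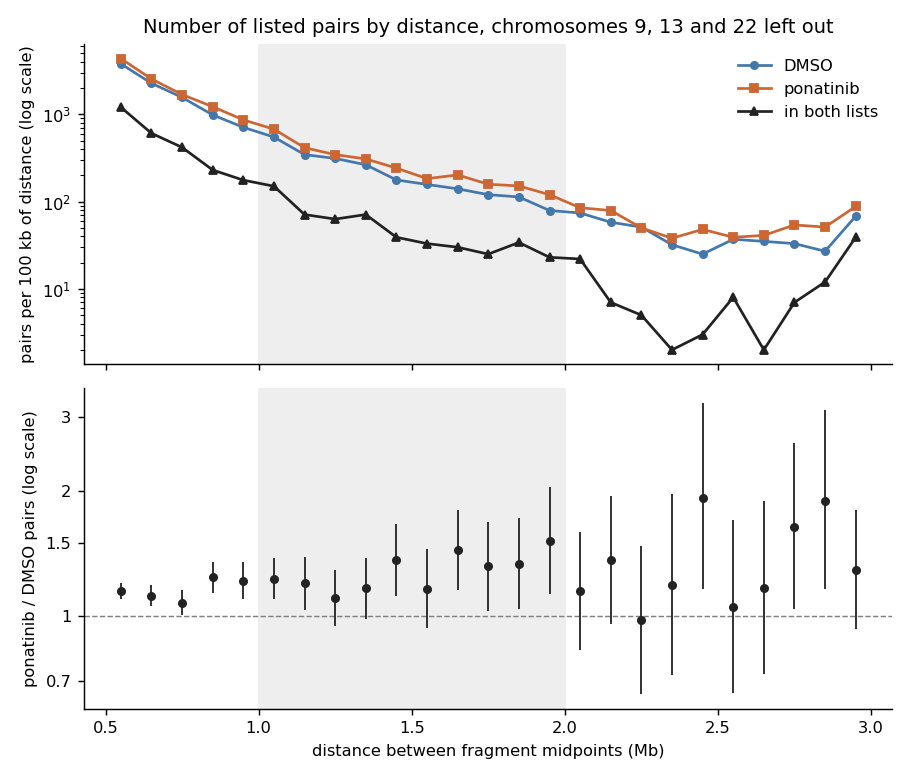
The upper panel plots the number of listed pairs per 100 kb of distance (log scale) against the distance between fragment midpoints in Mb, for DMSO (circles), ponatinib (squares) and pairs in both lists (triangles), with 1 to 2 Mb shaded. The lower panel plots the ratio of ponatinib to DMSO pairs (log scale) with 95% exact binomial intervals as bars; from 1 to 2 Mb all 10 ratios lie above 1, from 1.11 to 1.52, and 7 of the 10 intervals leave out 1.

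Only a minority of these contacts was found in both libraries. The identical pair of fragments was shared by 23.9% of the DMSO members (95% exact binomial interval 22.2% to 25.7%) and 19.3% of the ponatinib members (17.8% to 20.8%). Pairs of 500 kb to 1 Mb were shared in 28.3% and 24.7%, so that sharing from 1 to 2 Mb differed by -4.41 percentage points (95% Newcombe interval -6.36 to -2.39) and -5.47 points (-7.11 to -3.76). Against pairs of 2 Mb or more, of which 27.0% and 21.1% were shared, both differences had intervals that hold 0. Allowing the fragments at both ends to lie up to 20 kb apart raised the shared part of the DMSO members to 51.4%. Many contacts of 1 library therefore had a neighbour in the other.

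Sharing rose with the score in both lists. In DMSO 12.1% of the 1017 pairs with a score from 5 to under 6 were shared, 32.1% of the 526 from 7 to under 10, 58.0% of the 169 from 10 to under 15 and 91.4% (82.3% to 96.8%) of the 70 at 15 or more. In ponatinib these shares were 6.89% of 1219, 21.5% of 629, 56.8% of 264 and 81.5% (73.5% to 87.9%) of 124. The pairs with the highest scores were thus mostly present in both libraries, while those near the lower limit of the lists mostly stood in 1 of them.

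**Figure D2:**
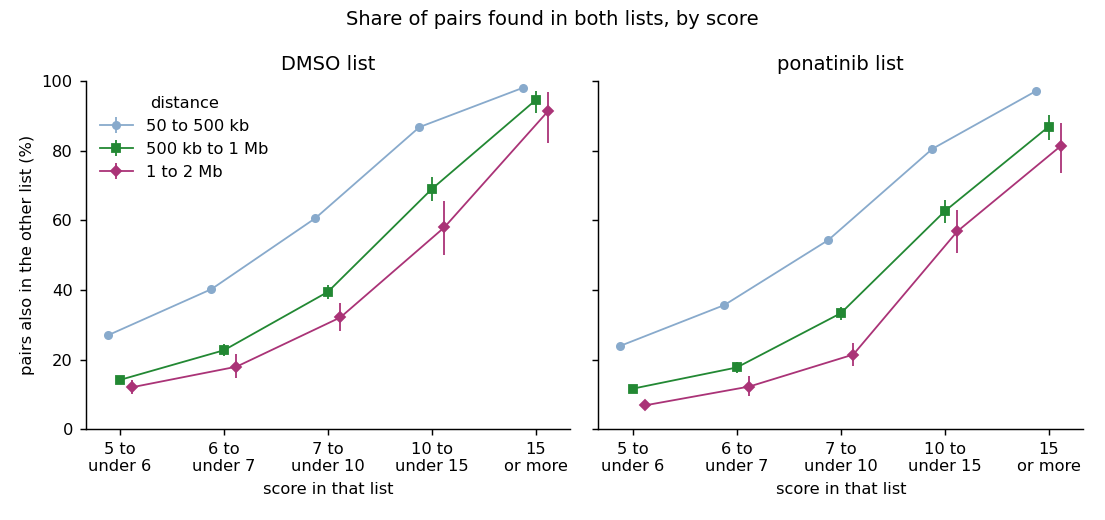
The share of pairs also found in the other list (%) is plotted against the score bin, in the DMSO list (left) and the ponatinib list (right), for distances of 50 to 500 kb (circles), 500 kb to 1 Mb (squares) and 1 to 2 Mb (diamonds), with 95% exact binomial intervals as bars. In each list the share rises from the lowest to the highest bin, from 12.1% to 91.4% (DMSO) and from 6.89% to 81.5% (ponatinib) for 1 to 2 Mb, which lies below the shorter classes in every bin.

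The score is the authors' own value for a pair, and no source used here says what it is. Wherever scores or score limits are compared between the lists, a common scale is assumed, which was not tested. The median score was 6.17 (95% order-statistic interval 6.09 to 6.25) in DMSO and 6.29 (6.18 to 6.37) in ponatinib. A score of 10 was reached by 10.6% and 13.9% of members. In DMSO shared pairs had a median score of 7.90 and pairs of that list alone 5.94. In ponatinib the medians were 9.55 and 5.99. Of the 539 shared pairs 331 had the higher score in ponatinib and 204 in DMSO, which describes the lists and not the strength of contacts.

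Neighbouring fragments often repeated a contact. When pairs were joined wherever both of their ends lay within 20 kb of each other, the 4514 pairs formed 2700 blocks, of which 2147 (79.5%) were a single pair. The 143 blocks of at least 5 pairs held 1339 pairs, 29.7% of all, and 141 of these blocks had pairs from both lists. Counted as blocks, 30.5% of those in DMSO also had a ponatinib pair, and 26.1% of those in ponatinib a DMSO pair.

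Fewer genes lay between the ends of these pairs, per Mb, than in pairs of 500 kb to 1 Mb. The median density was 2.78 coding genes per Mb (2.64 to 2.93) in DMSO, 2.75 (2.65 to 2.84) in ponatinib and 1.67 (1.56 to 1.93) for shared pairs, against 6.05 (5.90 to 6.31) and 6.44 (6.19 to 6.66) for pairs of 500 kb to 1 Mb. Pairs of 2 Mb or more had 3.29 (3.02 to 3.40) and 3.03 (2.83 to 3.29). No coding gene lay between the ends of 12.4% of shared pairs. Bait fragments with such a pair had a median of 5.67 genes per Mb within 1.5 Mb on either side, and other listed baits 9.33. Leaving out pairs with baits at both ends, the partner overlapped a coding gene in 47.8% of DMSO pairs and 45.6% of ponatinib pairs. They differed from those of 500 kb to 1 Mb by -5.15 points (-7.70 to -2.59) and -6.81 points (-9.08 to -4.52). For 2 Mb or more the partner lay in a coding gene in 58.3% and 52.8%. Among shared pairs the partner lay in a coding gene in 37.5% (32.9% to 42.3%), against 49.3% of the shared pairs of 500 kb to 1 Mb, a difference of -11.8 points (-16.8 to -6.69).

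Partners of 1 to 2 Mb showed no detectable side relative to transcription. They lay downstream of the gene's start in 49.7% (46.0% to 53.3%) of DMSO and 49.6% (46.4% to 52.8%) of ponatinib pairs with 1 orientation. The downstream share differed from that of 500 kb to 1 Mb by -2.99 points (-6.99 to 1.02) in DMSO and -3.69 points (-7.25 to -0.121) in ponatinib. For 2 Mb or more it was 41.2% and 43.9%. Both ends were baits in 19.2% (17.6% to 20.9%) of DMSO members and 16.6% (15.3% to 18.1%) of ponatinib members. The DMSO share differed from that of 500 kb to 1 Mb by -0.0404 points (-1.81 to 1.81), and the ponatinib share by -2.58 points (-4.11 to -0.972).

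Chromosomes differed widely in how much of their contact list was this long. Chromosome 21 had the largest share, with 79 of its 1174 same-chromosome pairs in DMSO (6.73%, 5.36% to 8.32%) and 91 of 1204 in ponatinib (7.56%, 6.13% to 9.20%), and 35 of these were in both lists. Many of them came from 2 blocks of neighbouring fragments. A block of ADAMTS1 and HEMK2 supplied 22 DMSO and 26 ponatinib pairs, 17 of them shared. A block of LINC01426 and SETD4 supplied 16 and 14, 6 of them shared. Chromosomes 6 and 8 followed in DMSO with 4.99% each. The gene-dense chromosome 19 had the smallest share, with 12 pairs in DMSO (0.746%) and 21 in ponatinib (1.18%), none of them shared, and chromosome 17 had 29 (0.828%) and 48 (1.19%). Chromosome 1 held the most pairs, 300 and 354. Ponatinib had more pairs than DMSO on all 20 chromosomes, with ratios from 1.10 on chromosome 18 to 1.75 on chromosome 19, and the interval of the ratio left out 1 on 7 of them, chromosomes 1, 3, 4, 5, 7, 16 and 17. Same-chromosome pairs of every length were also more numerous in ponatinib on each chromosome, such as 11844 against 10950 on chromosome 1. The share that spans 1 to 2 Mb was higher in ponatinib on each chromosome too, with overlapping intervals.

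**Figure D3:**
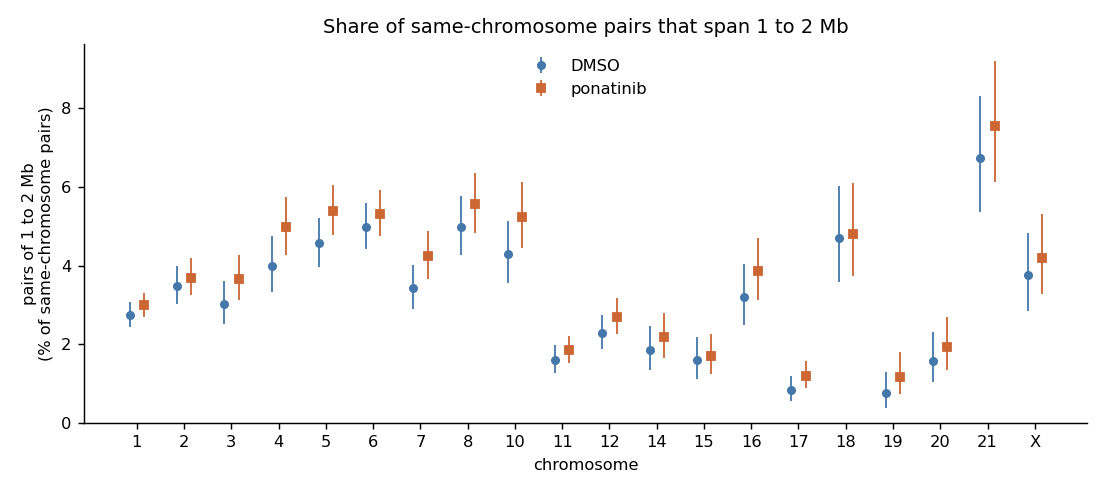
The share of same-chromosome pairs that span 1 to 2 Mb (%) is plotted for each chromosome except 9, 13 and 22, in DMSO (circles) and ponatinib (squares), with 95% exact binomial intervals as bars. Chromosome 21 has the largest share (6.73% and 7.56%) and chromosome 19 the smallest (0.746% and 1.18%).

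Of the 16151 bait fragments listed on these chromosomes 2540 (15.7%) had a pair of 1 to 2 Mb. There were 1524 such baits in DMSO and 1708 in ponatinib, and 692 in both, which is 45.4% of the first and 40.5% of the second. Most held few: 1668 (65.7%) had 1 pair over both lists, 215 had at least 5 and 69 at least 10. The 10 fullest baits held 6.11% of all members, against 2.28% for the 10 fullest of 500 kb to 1 Mb. The median number of listings under 1 Mb was 6 both for these baits and for the other listed baits, and 273 of them (10.7%) had no pair under 1 Mb in either list. At the level of genes, 1823 of the 12027 coding genes with a listed bait (15.2%) had a pair of 1 to 2 Mb, 506 of them in both lists and 232 with a shared pair.

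**Figure D4:**
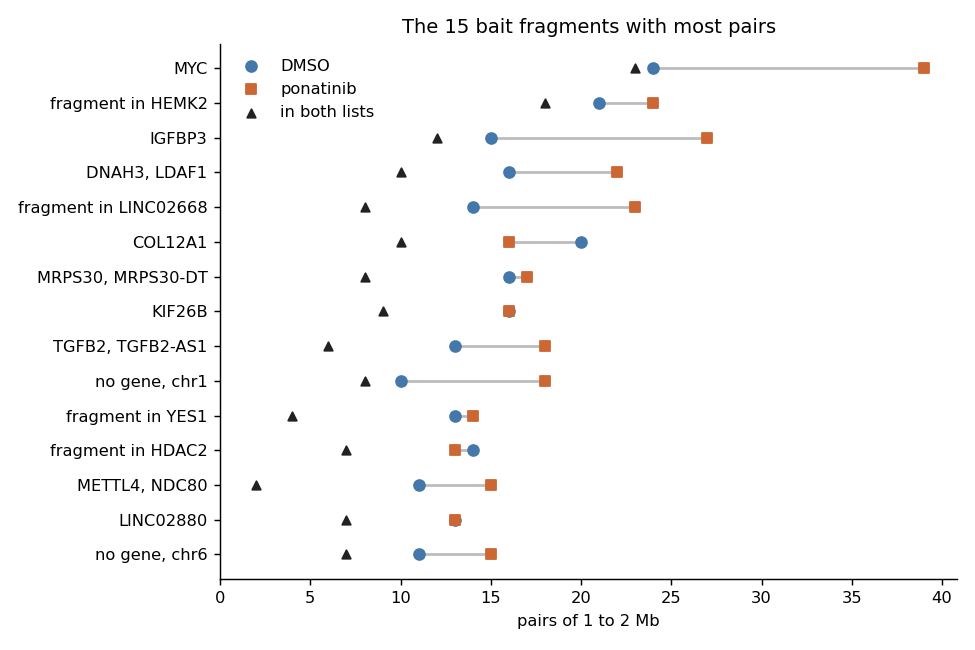
The number of pairs of 1 to 2 Mb is plotted for the 15 bait fragments with the most, ordered from the top, in DMSO (circles), ponatinib (squares, drawn over the circle where numbers are equal) and in both lists (triangles). MYC runs from 24 to 39 and IGFBP3 from 15 to 27, while COL12A1 runs from 20 down to 16. Baits without a gene start are named by the gene they lie in or by their chromosome.

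The fullest bait was that of MYC, a transcription factor of cell growth, on a fragment it shares with the long noncoding RNA gene CASC11 (chr8:127733745-127744733). It had 24 pairs in DMSO and 39 in ponatinib, 23 of them in both lists, all at higher coordinates and 1771 to 1991 kb away, in and beside CCDC26, a long noncoding RNA gene, and up to GSDMC, a gasdermin gene. That is a ratio of 1.63, whose interval of 0.953 to 2.82 holds 1. Pairs with a score of at least 10 numbered 15 and 28, and 19 of the 23 shared pairs scored higher in ponatinib, whereas MYC's pairs under 1 Mb numbered 9 and 11. The window chr8:129500001-129600000 in CCDC26 was reached from 7 baits, MYC and fragments along the noncoding gene PVT1 among them, with 14 pairs in DMSO and 33 in ponatinib.

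The highest scores belonged to chromosome 21. A bait inside HEMK2, a methyltransferase gene, that holds no gene start (chr21:28740628-28745201) had 21 pairs in DMSO and 24 in ponatinib, 18 of them shared. Of its 27 distinct partners 23 lay over 1800 kb away, in or beside ADAMTS1, which encodes a secreted metalloproteinase of the extracellular matrix. Its pair with the ADAMTS1 bait itself, 1899 kb away, reached 32.73 under DMSO and 70.22 under ponatinib. A fragment beyond the ADAMTS1 start, chr21:26850868-26853010, scored 32.74 and 101.45, the latter the highest score of all members. The 5 highest DMSO scores, from 32.04 to 33.43, were all pairs of this bait. As a block, ADAMTS1 and HEMK2 were joined by 22 DMSO and 26 ponatinib pairs, 17 of them shared (ratio 1.18, interval 0.644 to 2.19).

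COL12A1 likewise had its highest scores in both libraries with a distant stretch, chr6:73845030-73867714, that overlaps no coding or long noncoding gene. Its partners as a whole spread wider, from chr6:73680333 to chr6:74099371. Its bait (chr6:75195031-75207121), whose promoter is printed above, had 20 pairs in DMSO and 16 in ponatinib, 10 of them shared, all 1104 to 1519 kb towards lower coordinates, and none under 1 Mb in either list. Its highest score in DMSO was 27.18, with chr6:73856004-73856748, a fragment that scored 29.84 in ponatinib. Its highest score in ponatinib was 34.27, with a bait without a gene, chr6:73858897-73865378, which scored 26.81 in DMSO. That second bait had 11 and 15 pairs of its own. For COL12A1 the ponatinib number was 0.8 times that of DMSO, with an interval of 0.388 to 1.62.

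IGFBP3 (chr7:45916128-45924221) had 15 pairs in DMSO and 27 in ponatinib, 12 of them shared, all 1086 to 1346 kb towards higher coordinates. Like COL12A1 it had no pair under 1 Mb in either list. The highest scores were 18.66 and 26.19, and the ratio of 1.80 had an interval of 0.924 to 3.64. The printed IGFBP3 promoter is the richest in CG of the 5.

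TGFB2 (chr1:218343059-218348644) had 13 pairs in DMSO and 18 in ponatinib, 6 of them shared. One of its partners is itself a bait, chr1:219661376-219663471, which holds no gene start and had 10 and 18 pairs back towards TGFB2 and the neighbouring RRP15, a gene of ribosomal RNA processing. All 8 shared pairs of that bait scored higher in ponatinib. The block that joins them had 15 DMSO and 26 ponatinib pairs, 10 of them shared. RSPO3 (chr6:127115987-127121228) had 7 and 18 pairs, 5 of them shared, 1062 to 1805 kb away many of them at TRMT11, a transfer RNA methyltransferase gene. Its highest score was 13.42 in DMSO and 12.08 in ponatinib. RSPO3 is named here because it was among the 10 largest gains, so its numbers are a description.

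Among the other baits with the most pairs, that of DNAH3, an axonemal dynein chain, and LDAF1, a protein of lipid droplet assembly, had 16 pairs in DMSO and 22 in ponatinib, 10 of them shared, among them a block with CDR2 and with POLR3E, a subunit of RNA polymerase III. MRPS30, of the mitochondrial ribosome, had 16 and 17 pairs, 8 of them shared, many of them at NNT, the mitochondrial transhydrogenase. KIF26B, a kinesin family gene, had 16 and 16, 9 of them shared, towards SMYD3, a lysine methyltransferase. A bait in the noncoding gene LINC02668 (chr10:3226064-3243335) had 14 and 23, 8 of them shared. In all of these baits the partners lay to 1 side only.

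**Figure D5:**
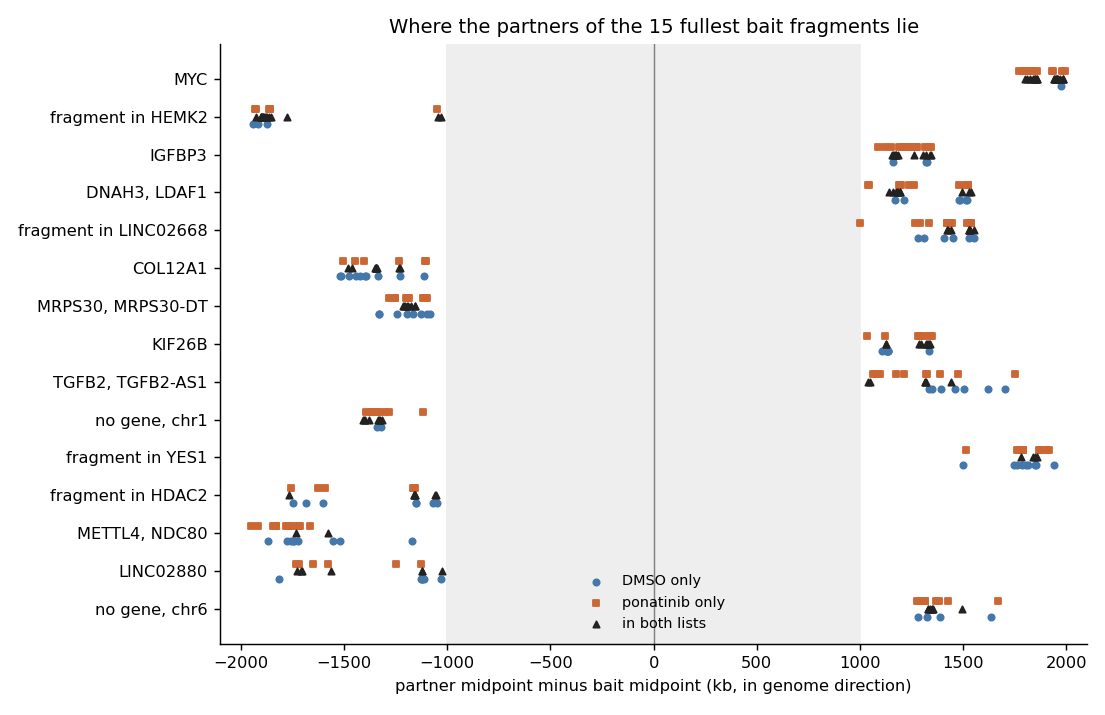
For the 15 fullest bait fragments, each row plots the partners' midpoints minus the bait's midpoint in kb, for pairs in DMSO only (circles), ponatinib only (squares) and both lists (triangles), with distances under 1000 kb shaded. In every row the partners lie to 1 side of the bait, and every row has pairs found in both lists.

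The largest block joined 2 groups of promoters on chromosome 18. YES1, a SRC family kinase gene, and a bait within it met the shared bait of METTL4, a methyltransferase, and NDC80, of the kinetochore, and SMCHD1, a chromatin protein of X inactivation, across 1701 to 1872 kb. The block had 20 pairs in DMSO and 18 in ponatinib from 6 baits, and just 5 were shared, so the same regions met in both libraries through mostly different fragments. The pair of YES1 with METTL4 and NDC80 scored 25.72 and stood in the ponatinib list alone. A second promoter-to-promoter block on chromosome 1 joined MATN1-AS1, an antisense RNA gene, to MECR, of mitochondrial fatty acid synthesis, and PTPRU, a receptor phosphatase, with 12 and 14 pairs, 8 of them shared. MECR with MATN1-AS1 scored 20.61 in DMSO and 33.32 in ponatinib.

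BCL6 had 7 pairs in DMSO and 11 in ponatinib, and all 7 were shared, 1200 to 1407 kb away beside TPRG1-AS1. Its top pair scored 14.70 under DMSO and 33.82 under ponatinib, and pairs of at least 10 numbered 2 and 7. PLK2, a polo-like kinase, had 5 and 11, 4 of them shared, with highest scores of 28.88 and 22.97. Both genes had more pairs in ponatinib, and the intervals of their ratios, 0.556 to 4.78 for BCL6 and 0.705 to 8.08 for PLK2, held 1. The following loci were chosen after their values were seen. SOX4, a developmental transcription factor, had 9 and 12 pairs, 6 of them shared, most of them in CDKAL1, a transfer RNA modification gene. The HOXD cluster, which patterns limbs and the trunk, met CHN1 on one side through 10 DMSO and 12 ponatinib pairs, 5 of them shared, and the region chr2:177138829-177165893 on the other side through 7 and 9, 3 of them shared. SHH, the hedgehog ligand, had 3 and 5 pairs, 1 of them shared. One of them, in LMBR1 at 1008 kb, stood in ponatinib alone at a score of 18.61. LMBR1 is the gene in which the limb enhancer of SHH lies, and whether this fragment holds that enhancer was not examined.

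A bait was called different in number where it had at least 5 listings of this length over both lists and a ratio (ponatinib + 1)/(DMSO + 1) of at least 2 or at most 0.5, which is a rule of size and not a test. Of the 249 baits with enough listings 48 (19.3%) had more in ponatinib and 16 (6.43%) fewer. For pairs of 500 kb to 1 Mb these shares were 14.5% and 6.35% of 1308 baits, for 50 to 500 kb 10.7% and 6.65% of 7732, and over every same-chromosome distance 10.6% and 6.89% of 10211. Baits have fewer listings at longer distance, and a ratio of small numbers varies more, so the percentages of the classes were not compared by a test. By number, the largest gains after MYC, IGFBP3 and RSPO3 were those of POC1B, a centriole gene, from 3 to 12 and of the LINC02668 bait from 14 to 23. Next came LINC02912, a noncoding gene beside PVT1, from 2 to 10, MON1B, of vesicle trafficking, from 3 to 11, RRP15 from 7 to 15, the bait chr1:219661376-219663471 from 10 to 18 and CETN3, a centrin gene, from 1 to 8. The POC1B bait also holds the start of GALNT4. MYC, IGFBP3, the LINC02668 bait and the bait chr1:219661376-219663471 had ratios under 2 by this rule and were not among the 48.

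The largest losses by number were smaller than the largest gains. A bait within ROBO2, an axon guidance receptor gene, had 9 pairs in DMSO and 2 in ponatinib, none shared, and its pairs under 1 Mb numbered 19 and 11. LINC01426, a noncoding gene on chromosome 21, had 15 in DMSO and 9 in ponatinib, a ratio above 0.5 and so not a call. MIR802, a microRNA gene on the same chromosome, had 5 in DMSO and 0 in ponatinib. CWF19L2 and SCYL3 each had 4 in DMSO and 0 in ponatinib, a number too small for the rule above. MMADHC, of vitamin B12 metabolism, had 10 and 6, 3 of them shared, and was not a call either. COL12A1, described above, went from 20 in DMSO to 16 in ponatinib, likewise not a call, and its highest DMSO score was 27.18. None of the other baits in this paragraph carried a score above 20 in DMSO.

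Of the 13 gene lists examined, histone genes had the largest share with a long contact. Of 50 histone genes with a listed bait 37 (74.0%, 59.7% to 85.4%) had a pair of 1 to 2 Mb, against 15.2% (14.5% to 15.8%) of all coding genes. They lie on 24 of 35 bait fragments, had 23 pairs in DMSO and 27 in ponatinib, 8 of them shared, and 26 of the 42 distinct pairs joined 1 histone bait to another. On chromosome 6 the window chr6:27800001-27900000 was reached from 11 baits and chr6:26000001-26100000 from 11, the latter including baits of ACOT13 and C6orf62, which are not histone genes. H2AC12 and H2BC12, on a common bait, had 5 and 6 pairs, 4 of them shared. The median density around histone genes was 21.3 coding genes per Mb, against 10 for all coding genes with a listed bait. Histone genes were also rich in listings in general. At least 20 listings were held by 72.0% of them, against 18.6% of all coding genes. The share with a pair of 1 to 2 Mb was not compared with genes of like numbers of listings.

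Cell adhesion and synapse genes had a median of 1 coding gene per Mb around them. Of the 66 genes in the list 26 had a listed bait, and 13 of the 26 (50%, 29.9% to 70.1%) had a pair of 1 to 2 Mb. They had 21 pairs in DMSO and 20 in ponatinib, 7 of them shared. A gene counted as listed through a pair of any length, so several of the 13, CDH10 among them, entered the 26 by a 1 to 2 Mb pair alone. The share of 50% is raised by that rule, which held for every list and for all coding genes. PCDH10, a protocadherin, had 7 and 5, and LRRC4C, a synaptic adhesion protein, 6 and 7, 4 of them shared. Developmental transcription factors had such pairs for 27 of 89 genes (30.3%, 21.0% to 41.0%), with 37 pairs in DMSO and 60 in ponatinib, 17 of them shared. Of these genes 18 had more pairs in ponatinib and 5 fewer. TBX3 had 7 and 11, POU3F2 6 and 8, and HOXD13 3 and 5. For all coding genes with such a pair these counts were 879 more and 718 fewer.

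The list of BCR-ABL1 signalling targets and feedback genes had pairs for 12 of 59 (20.3%, 10.98% to 32.8%), with 38 in DMSO and 58 in ponatinib, 33 of them shared, and its interval holds the 15.2% of all coding genes. MYC and BCL6 supplied 31 of the DMSO and 50 of the ponatinib pairs. CISH, a feedback inhibitor of cytokine signalling, had 0 and 2, and DUSP4, a phosphatase of ERK, 2 and 1. Erythroid genes had pairs for 8 of 35, with 5 in DMSO and 6 in ponatinib and none shared, and TRIM58 had the most, 0 and 3. Megakaryocyte and platelet genes had them for 2 of 19, granulocyte and monocyte genes for 2 of 19, stem and progenitor genes for 3 of 17, lymphoid genes for 6 of 23 and liver and neuron genes for 2 of 13. At these numbers a difference from the 15.2% of all coding genes was not detectable for these 6 lists, whose intervals all hold it.

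Cell cycle genes had pairs for 13 of 47 (27.7%, 15.6% to 42.6%), but 11 pairs in DMSO and 9 in ponatinib with 1 shared. TOP2A, topoisomerase II alpha, had 1 and 3, and MAD2L1, of the spindle checkpoint, 2 and 1. Ribosomal protein genes had them for 10 of 59, with 12 and 9 pairs, 2 of them shared, and RPS24 had 4 and 1. Genes of CTCF, cohesin, Mediator and Polycomb had them for 8 of 44, with 9 and 8 pairs, 2 of them shared. RAD21, a cohesin subunit, had 3 in DMSO and 0 in ponatinib, and JARID2, of Polycomb, 1 and 3. In these 3 lists most members had a single pair in 1 list, as did most baits of this distance.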

How the data were processed

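Promoter-capture Hi-C was made from K562 cells by HindIII digestion, ligation and capture with RNA probes (labels' protocols). The authors' deposited files are 1 list of fragment pairs per library, in hg38 per the submitters' processing notes, each pair with a score of at least 5. No source used here gives the caller, the depth or what the score is. A pair that the ponatinib list held in both orientations was counted once.

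Pairs were shared when both fragments were identical. Genes (RefSeq, GRCh38.p14) were assigned to the bait holding their transcription start (9579 coding genes) or, where no strand was known, either end (2448). Intervals are 95% exact binomial (Clopper-Pearson), Newcombe for differences of shares and order-statistic for medians, computed with Python 3.11.15, pandas 2.3.3 and SciPy 1.17.1. Ratios of numbers use the exact binomial interval of the ponatinib share of listings. The functions were tested on simulated data.

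With 1 library per treatment no test of treatment exists. Alternatives were score limits, list lengths, matching distances and left-out chromosomes or loci. Named genes are mostly those on the 10 fullest baits and on the 10 largest gains and losses. They are also those at the ends of the 10 highest-scoring pairs of each list and of the 10 strongest shared pairs. Further ones are up to 3 per gene list, those in the 5 most reached windows, and MYC, CCDC26 and PVT1. Others, among them the YES1 block, SOX4, the HOXD cluster, SHH and genes at the partner end, were named after their values were seen. Members and lists were chosen with earlier results of these data known.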

Additional observations from a re-analysis of the deposited data

How the results depend on the processing

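Leaving out chromosome X or the fullest bait, adding chromosomes 9, 13 and 22, or measuring distance between fragment edges moved none of the 9 main results beyond its interval or by over 1.5 times. At a score of at least 7 and of at least 10 the ratio of ponatinib to DMSO pairs was 1.33 and 1.62, and 1.61 at 10 without the MYC bait, an alternative chosen after seeing the data. At these limits the shared part of the DMSO list was 34.0% and 46.4%, the median score 8.68 and 12.71 in DMSO and 8.95 and 13.03 in ponatinib, the promoter-to-promoter share 21.6% and 21.7%, and the share held by the 10 fullest baits 12.5% and 23.6%. Baits with more pairs in ponatinib numbered 15 and 10 and those with fewer 2 and 0. With a minimum of 10 listings they numbered 13 and 2. At a score of at least 10 the share of same-chromosome pairs differed by 0.902 points. Lists of equal length gave a ratio of 1.12 and a ponatinib median of 6.50, and pairs merged within 20 kb a ratio of 1.16. Matching ends within 5, 10 or 20 kb gave shared parts of 41.7%, 46.4% and 51.4%.

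At a score of at least 7 the shares of genes with a pair were 14.6% (developmental transcription factors), 19.2% (adhesion and synapse), 5.71% (erythroid), 0% (stem and progenitor), 6.38% (cell cycle), 6.78% (ribosomal), 6.82% (CTCF, cohesin, Mediator and Polycomb), 58.0% (histone), 8.70% (lymphoid), 0% (liver and neuron) and 5.72% (all coding genes). A higher limit leaves fewer pairs by construction. No paired analysis was possible because each treatment has 1 library. Depth is unknown, so no limit of detection can be given.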
